A study of Mus musculus with 2 samples.

Results

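The 10 genes described here encode enzymes and helpers that process and crosslink collagen: *Lox*, *Loxl1*, *Loxl2*, *Loxl3*, *Plod1*, *Plod2*, *P4ha1*, *P4ha2*, *Serpinh1* and *Pcolce*. They were taken by gene symbol from the 31053 genes of both count matrices, and all 10 were found. The rule names them by symbol and uses no measured value, but it was written with earlier results of these data known. The data are 2 single-cell RNA libraries from wounds on the back skin of C57BL/6 mice aged 7 to 9 weeks, taken 5 days after wounding. Both libraries are labelled as *Mrc1-DTR* mice, in which the promoter of *Mrc1*, the gene of the macrophage receptor CD206, drives the receptor for diphtheria toxin. The control library is labelled as given PBS and the other, called DTX here, as given diphtheria toxin, which kills cells that carry the receptor. The methods of the study describe the control animals differently, as wild-type mice given the toxin. In each group, live cells (negative for the dye 7AAD) of 3 mice were pooled before capture, so that no value below has an estimate of the spread between mice.

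Collagen chains are modified and folded inside the cell and joined to each other outside it. Prolyl 4-hydroxylases (*P4ha1* and *P4ha2* encode alternative catalytic subunits) hydroxylate prolines, which stabilises the triple helix, and lysyl hydroxylases (*Plod1*, *Plod2*) hydroxylate lysines, those of the helix for *Plod1* and those of the telopeptides for *Plod2*. *Serpinh1* encodes HSP47, the collagen chaperone of the endoplasmic reticulum, and *Pcolce* encodes a secreted protein that speeds removal of the C-terminal propeptide by BMP1. The copper-dependent lysyl oxidases (*Lox*, *Loxl1*, *Loxl2*, *Loxl3*) then oxidise lysines and hydroxylysines of secreted collagen and elastin, the step from which covalent crosslinks form. In wounded skin this machinery is best known from fibroblasts that lay down new matrix, and hypoxia is known to raise several of its genes, among them *P4ha1*, *P4ha2*, *Plod2* and *Lox*.

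Promoter sequences of 5 of the 10 genes were held in the RefSeq table for GRCm38.p6, each from 250 bases before to 50 bases after the start of the gene and written 5′ to 3′ on the strand of the gene. The 3 that hold ACGTG, a form of the core letters of the hypoxia response element, are shown because prolyl hydroxylases and the hypoxia genes are compared below. Other forms of that core were not searched for or marked. Capitals mark ACGTG or its reverse complement CACGT, and no stretch matched the heat shock letters GAANNTTC in these 3.
*P4ha1*, chr10:59323046-59323345, plus strand: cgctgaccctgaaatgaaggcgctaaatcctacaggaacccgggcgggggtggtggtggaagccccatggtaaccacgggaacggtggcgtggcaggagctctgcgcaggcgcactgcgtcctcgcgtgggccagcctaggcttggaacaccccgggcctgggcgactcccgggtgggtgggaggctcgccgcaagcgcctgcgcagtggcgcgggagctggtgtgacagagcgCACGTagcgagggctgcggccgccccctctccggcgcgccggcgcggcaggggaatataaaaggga
*P4ha2*, chr11:54100674-54100973, plus strand: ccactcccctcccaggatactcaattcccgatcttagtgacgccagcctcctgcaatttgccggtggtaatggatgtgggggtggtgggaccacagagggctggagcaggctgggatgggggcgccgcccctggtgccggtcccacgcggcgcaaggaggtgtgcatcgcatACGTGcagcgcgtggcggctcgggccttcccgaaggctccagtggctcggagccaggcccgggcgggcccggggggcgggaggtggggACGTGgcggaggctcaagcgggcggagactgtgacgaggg
*Serpinh1*, chr7:99353190-99353489, minus strand: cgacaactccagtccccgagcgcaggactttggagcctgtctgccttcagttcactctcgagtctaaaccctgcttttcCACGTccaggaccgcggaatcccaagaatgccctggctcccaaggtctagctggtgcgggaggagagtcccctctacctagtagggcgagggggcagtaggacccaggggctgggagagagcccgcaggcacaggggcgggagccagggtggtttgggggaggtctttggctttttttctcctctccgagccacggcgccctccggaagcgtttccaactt

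The letters ACGTG stood once in the *P4ha1* promoter, from position -16 relative to the start, at 2 places in that of *P4ha2*, from positions -78 and 11, and once in that of *Serpinh1*, from position -171. Of 27025 mouse promoters of the same 300 bases, 19.7% held ACGTG on either strand and 7.95% held GAANNTTC, which stood once in the *Plod1* promoter and not in that of *Pcolce*. The RefSeq starts of *P4ha2* and *Pcolce* lie inside the GENCODE genes given below, so that their windows do not cover the GENCODE starts. A match describes letters in a window and shows no binding.

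The control library held 12058 barcodes with 105511870 UMIs (unique molecular identifiers, which count RNA molecules) and the DTX library 11031 barcodes with 81858751 UMIs. The cell numbers stated in the publication are attached to the groups the other way round, and the directions below rest on the labels of the libraries. By these labels, macrophage-like cells numbered 1671 in control and 4347 in DTX, fibroblast-like cells 3066 and 657, and epithelial-like cells 2066 and 235. The targeted gene *Mrc1*, whose promoter drives the toxin receptor, was still read in the macrophage-like cells of both libraries. Its level was 496 CPM (95% Poisson interval 481 to 511) in control and 438 (430 to 445) in DTX. CPM is a count relative to all UMIs of the class. This level among the cells captured does not count CD206-positive cells. The study measured those by flow cytometry and immunostaining and reported fewer of them after depletion. The filters were a minimum of 500 genes and a maximum of 6% of UMIs from mitochondrial genes, and removing cells called doublets then left 7944 and 6613 cells. The libraries shared 37 barcodes, 13 of them among the cells used. Since the number of libraries is 1 per group, no difference between the libraries was tested, and all intervals cover counting error only.

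Clusters were named from marker genes, and the 10 genes and 24 other collagen processing genes were left out of the clustering, so that their levels took no part in forming the clusters. The fibroblast-like cells (3066 in control and 657 in DTX) came from 2 clusters, each with all 10 fibroblast markers raised. Pericyte-like cells numbered 61 and 112 with 9 of 10 markers raised, and endothelial-like cells 73 and 56 with 10 of 10.

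In the genome build of the files, mm10 (GRCm38), the GENCODE annotation places *P4ha1* on chromosome 10 at 59323296 to 59373304, *P4ha2* on chromosome 11 at 54100095 to 54131665, *Plod1* on chromosome 4 at 147909753 to 147936767 and *Plod2* on chromosome 9 at 92542223 to 92608428. *Serpinh1* lies on chromosome 7 at 99345376 to 99353239 and *Pcolce* on chromosome 5 at 137605103 to 137613784. *Loxl1* lies on chromosome 9 at 58287738 to 58313186, *Loxl2* on chromosome 14 at 69609068 to 69695834, *Loxl3* on chromosome 6 at 83034173 to 83052562, and *Lox* on chromosome 18 at 52516067 to 52529867.

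Fibroblast-like cells carried most of the RNA of the whole set. In control they held between 78.3% (*P4ha1*) and 98.5% (*Loxl1*) of all UMIs of each gene. In DTX, where they were fewer, they still held 77.8% or more for 8 genes, but 39.1% for *Plod1* and 39.8% for *P4ha1*. Macrophage-like cells there held 45.3% of *Plod1* UMIs and 44.2% of *P4ha1* UMIs, against 6.74% and 6.04% in control. These are therefore the 2 genes of the set whose main source differed between the libraries. The parts of cell numbers and of levels per class in this were not tested.

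**Figure D1:**
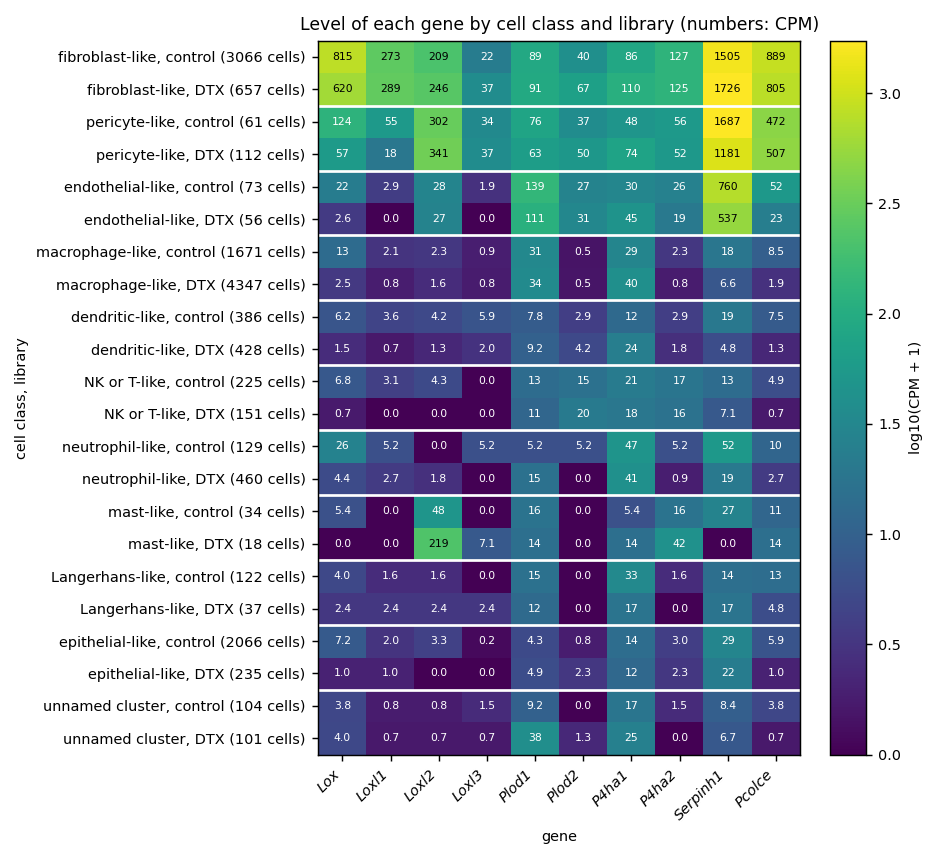
Level of the 10 genes (columns) in each cell class and library (rows), coloured by log10(CPM + 1), with the CPM written in each cell and the number of cells beside each row. Fibroblast-like and pericyte-like rows are high for most genes, endothelial-like rows stand out for *Plod1* and *Serpinh1*, and the macrophage-like rows hold *Plod1* and *P4ha1* at 28.7 to 40.1 CPM.

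Each 3′ UMI stands for 1 molecule whatever its length, and levels are compared here across cells for 1 gene at a time. *Serpinh1*, the collagen chaperone, was at 1505 CPM in control and 1726 in DTX in fibroblast-like cells, at 1687 and 1181 in pericyte-like cells, and at 760.1 and 537 in endothelial-like cells, with at most 51.8 in any immune or epithelial class of 100 cells or more. *Lox* was steeper: 815 and 620 CPM in fibroblast-like cells, 124 and 57.1 in pericyte-like cells and 21.9 and 2.56 in endothelial-like cells. *Loxl2* had the opposite order at the top, with 302 (267 to 340.1) and 341 (314 to 370.1) CPM in pericyte-like cells against 209 and 246 in fibroblast-like cells. In fibroblast-like subcluster 0, described below, it was at 322 (313 to 333) and 313 (298 to 329) CPM, with intervals that met those of pericyte-like cells. *Loxl3* was about as high in pericyte-like cells (33.5 and 36.9 CPM) as in fibroblast-like cells (21.9 and 36.9). *Plod1* was highest in endothelial-like cells, at 139 (118 to 164) and 111 (89.3 to 138) CPM, next to 88.8 and 90.5 in fibroblast-like cells, so that in DTX the intervals of these classes met. *Pcolce* followed *Lox* in its order, with 889 and 805 CPM in fibroblast-like, 472 and 507 in pericyte-like and 52.5 and 23.1 in endothelial-like cells.

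The fibroblast-like cells were clustered again into 6 subclusters. Subcluster 0 (844 cells in control and 292 in DTX) was led by *Sfrp2*, *Mfap5* and *Plac8* and had 4 of 6 markers of *Plac8* fibroblasts raised. The others had at most 1 raised marker of any fibroblast subset and stay unnamed: subcluster 1 (1024 and 97 cells) was led by *Igfbp2* and *Grem1*, subcluster 2 (753 and 61) by *Ctla2a* and *Gpx3*, and subcluster 3 (381 and 138) by *Coch* and *Fmod* with stress genes such as *Hspa1a* and *Atf3*. Subcluster 4 (44 and 45 cells) was led by *Cd74* and *Lyz2*, and its 12 macrophage markers summed to 2668 and 4657 CPM against 222 to 400.1 CPM in subclusters 0 to 3. Subcluster 5 (20 and 24 cells) was led by *Apod* and *Ccl11*.

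*Plod2*, the telopeptide lysyl hydroxylase, differed most among these subclusters. In subcluster 0 it was at 105 CPM (1324 UMIs) in control and 108 (562 UMIs) in DTX. In subcluster 1 a single UMI was counted in each library, 0.10 CPM (0.0025 to 0.559) in control and 0.764 (0.019 to 4.25) in DTX. Subcluster 2 held 11 UMIs (1.29 CPM) in control and 0 in DTX, where 3 UMIs would be 3.84 CPM and the upper Poisson bound is 4.72 CPM. Subcluster 3 lay between, at 9.30 and 17.0 CPM, as did subcluster 4, at 31.6 and 73.3 CPM. The few cells of subcluster 5 had 178 (111 to 269) and 27.0 (8.77 to 63.1) CPM from 22 and 5 UMIs. After thinning each cell to 2000 UMIs, 16.2% (13.8 to 18.9) of the 833 cells of subcluster 0 in control had a *Plod2* UMI, against 0 of 980 cells in subcluster 1, where the upper bound is 0.376%. In DTX the shares were 14.8% (10.9 to 19.4) of 291 cells and 0 of 93 cells, with an upper bound of 3.89%. Without thinning, 51.8% and 55.1% of the cells of subcluster 0 had one.

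*Loxl3* had a like pattern. It was at 56.3 CPM in control and 65.4 in DTX in subcluster 0, and at 0.701 to 4.17 CPM in subclusters 1 to 3 of both libraries. Of its UMIs in fibroblast-like cells, 92.1% and 94.7% came from subcluster 0, as did 94.0% and 86.1% of those of *Plod2*. For the other 8 genes, subcluster 0 gave 36.5% to 55.4% in control, where it held 35.9% of all UMIs of these cells, and 51.4% to 68.4% in DTX, where it held 53.5%. Each of the other 8 was thus read in every one of subclusters 0 to 3.

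**Figure D2:**
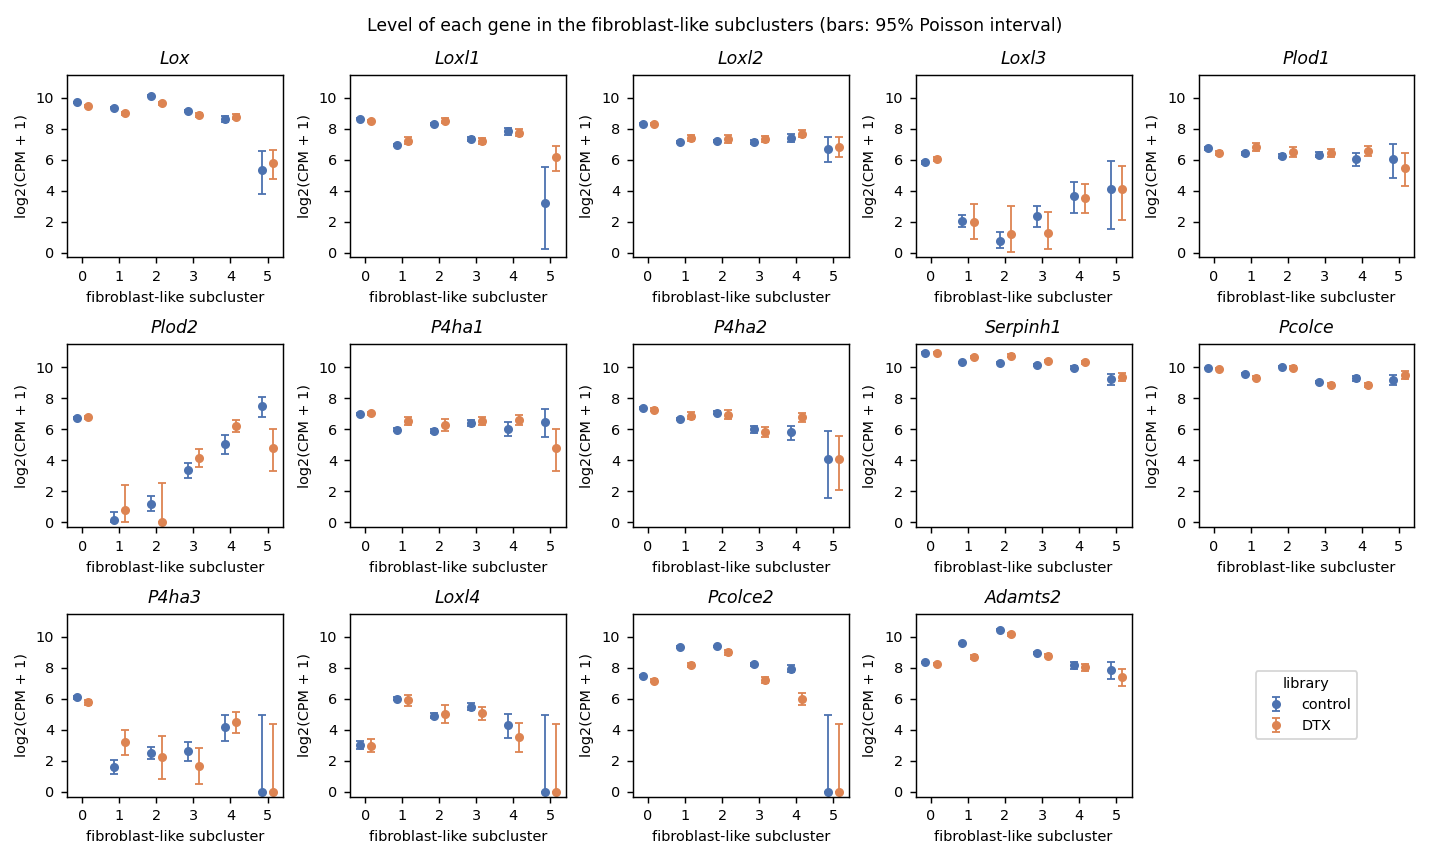
Level as log2(CPM + 1) of the 10 genes and of *P4ha3*, *Loxl4*, *Pcolce2* and *Adamts2* in the 6 fibroblast-like subclusters, blue for control and orange for DTX, with 95% Poisson intervals. *Plod2*, *Loxl3* and *P4ha3* are at 53.4 to 108 CPM in subcluster 0 and at 17.0 CPM or less in subclusters 1 to 3, while *Lox*, *Serpinh1* and *Pcolce* are high in subclusters 0 to 3.

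Set against all other fibroblast-like cells of its library, subcluster 0 was past 1.5-fold higher for 7 of the 10 genes in control and 6 in DTX and past 1.5-fold lower for none, where 30.6% and 26.4% of all tested genes were past 1.5-fold in either direction. In control the log2 ratio was 4.47 (4.21 to 4.74) for *Plod2*, which ranked 7 among 11296 genes from the top, and 3.95 (3.65 to 4.24) for *Loxl3*, which ranked 17. In DTX the ratios were 2.37 (2.06 to 2.69) and 3.67 (3.11 to 4.25). *Loxl2* (1.15 and 0.89), *Loxl1* (0.96 and 0.91) and *P4ha2* (0.62 and 0.70) were past the fold in both libraries, *P4ha1* (0.96 and 0.56) and *Serpinh1* (0.67 and 0.44) in control, and *Pcolce* (0.25 and 0.63) in DTX. *Lox* (0.041 and 0.46) and *Plod1* (0.40 and -0.12) were past it in neither. These ratios depend on how subcluster 0 is drawn: at a resolution of 0.5, where an *Acta2*-led group of its cells was not named *Plac8*-like, the *Plac8*-like cells of control had ratios of 1.65 for *Plod2*, 1.43 for *Loxl3*, 0.10 for *P4ha2* and -0.029 for *Serpinh1*, and those of DTX 0.61 for *Plod2*, 0.53 for *Loxl3* and -0.14 for *P4ha2*. The lower *Plod2* ratio in DTX stands beside 20.1 CPM in its other fibroblast-like cells, where subcluster 4, the one with macrophage markers, held 61 of 91 *Plod2* UMIs.

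At a finer resolution of 0.5, the cells of subcluster 0 were split further, and 96.4% of the 330 cells of a group led by *Acta2*, *Spp1* and *Col12a1* came from it. *Acta2* is the smooth muscle actin gene of contractile myofibroblasts. This group (252 cells in control and 78 in DTX) had *Serpinh1* at 2910.4 and 2865 CPM, *Plod2* at 147 and 163 CPM, *Loxl3* at 81.7 and 107 CPM and *P4ha2* at 219 and 224.5 CPM, each above every other group of 100 cells or more at that resolution in both libraries. *Plod2* was still at 71.7 and 73.0 CPM in a group of 456 cells led by *Mgp* and *Thbs4*, which carried the *Plac8* markers. At the other end, a group of 162 cells with *Mme* and *Crabp1* among its leading genes had 0 UMIs of *Plod2* in both libraries and the lowest *Lox* of the groups of 100 cells or more, 273 and 408 CPM. It held 143 cells in control and only 19 in DTX, where 3 UMIs would be 11.8 CPM.

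The other collagen processing genes split between the same cells in both directions. *P4ha3*, the third prolyl 4-hydroxylase subunit, was at 67.6 and 53.4 CPM in subcluster 0 and at 3.96 and 7.75 CPM in the remaining fibroblast-like cells. *Loxl4*, the remaining lysyl oxidase, ran the other way, at 7.16 and 6.92 CPM against 46.2 and 34.7 CPM. *Adamts2*, which cleaves the N-terminal propeptide of procollagen, was at 329 and 303 CPM against 958 and 514 CPM, and *Pcolce2*, a relative of *Pcolce*, at 176 and 142 CPM against 596 and 230.4 CPM. In control, 8 of 21 tested genes of this list were past 1.5-fold higher in subcluster 0 and 3 lower, and in DTX 2 and 3 of 20, where the shares of all genes past it in either direction were the 30.6% and 26.4% given above. The DTX count is near that share. Within the lysyl oxidases, *Loxl3* was thus higher in subcluster 0 and *Loxl4* outside it.

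Between the libraries, the summed level of the 10 genes in fibroblast-like cells was 4054 CPM in control and 4115 in DTX, a log2 ratio of 0.022 (0.0055 to 0.038, with 1 CPM added as in all ratios). Most of the 142041 and 40001 UMIs of this sum came from *Serpinh1* (52719 and 16778), *Pcolce* (31136 and 7829) and *Lox* (28536 and 6024). Their own log2 ratios were 0.20, -0.14 and -0.39, so that the sum describes mainly these genes, which differed in direction. The median of the 11814 tested genes (at least 50 UMIs) was 0.12, and with the ratios scaled by the median the sum was at -0.11. *Col1a1*, *Col1a2* and *Col3a1* together were lower in DTX, at 42226 against 54876 CPM. Beside 1000 UMIs of these collagens stood 97.5 UMIs of the 10 genes in DTX and 73.9 in control. In control and DTX this number was 97.3 and 107.7 in subcluster 0, 47.3 and 68.9 in subcluster 1, 77.2 and 80.0 in subcluster 2, and 84.0 and 97.9 in subcluster 3. The collagens were not lower in subcluster 2 (53828 and 54419 CPM). The part of the subcluster shares in the difference was not tested. Of the 10 genes, 2 were past 1.5-fold, both higher in DTX, where 11.3% of all tested genes were past it in either direction.

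These were *Plod2* and *Loxl3*, the genes with the largest shares of their fibroblast-like UMIs in subcluster 0. The level of *Plod2* went from 40.2 to 67.2 CPM (1409 and 653 UMIs), a log2 ratio of 0.73, and *Loxl3* from 21.9 to 36.9 CPM (768 and 359 UMIs), also 0.73. Subcluster 0 made up 27.5% of the fibroblast-like cells in control and 44.4% in DTX. Within it, both genes were close between the libraries, with log2 ratios of 0.036 (-0.11 to 0.18) for *Plod2* and 0.21 (0.025 to 0.40) for *Loxl3*. The DTX subclusters were also weighted by the UMIs each held in control, a calculation added after the values were seen. The ratios over all fibroblast-like cells were then 0.062 for *Plod2* and 0.18 for *Loxl3*. Whether toxin, capture or sorting set the share of subcluster 0 cannot be told apart with 1 library per group.

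**Figure D3:**
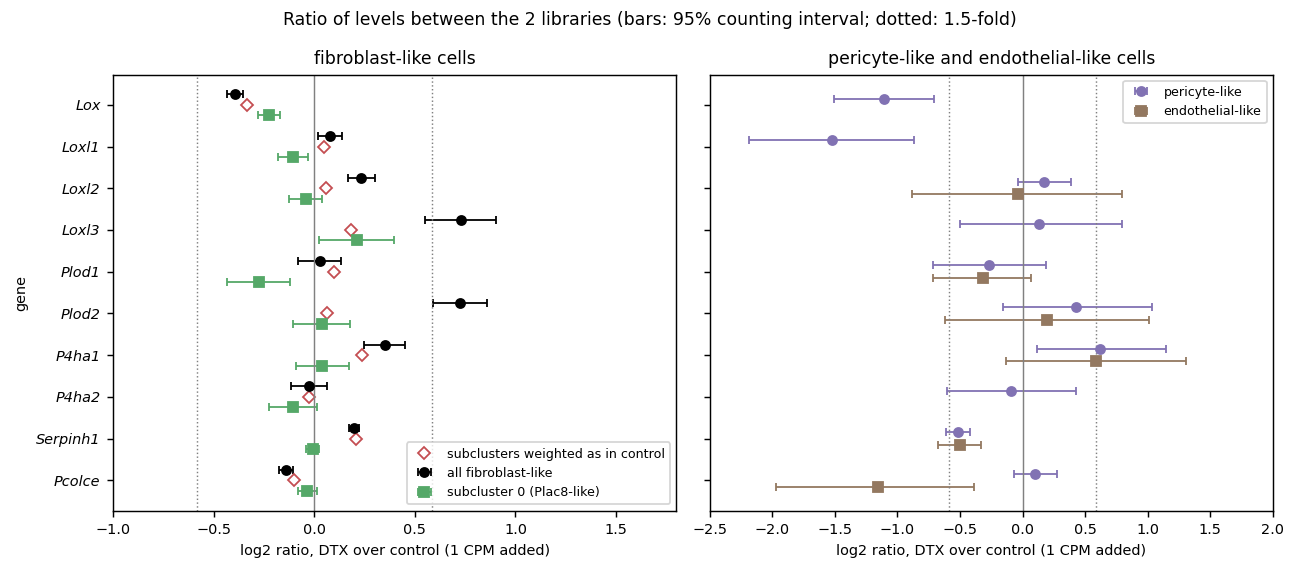
Log2 ratio of each gene, DTX over control, with 95% counting intervals and dotted lines at 1.5-fold. Left, all fibroblast-like cells (black circles), the same after weighting the subclusters as in control (open diamonds, no interval) and subcluster 0 alone (green squares): *Plod2* and *Loxl3* lie at 0.73 for all cells and at 0.21 or less within subcluster 0. Right, pericyte-like and endothelial-like cells for genes with at least 50 UMIs.

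*Lox*, in contrast, was lower in DTX in each of the 4 larger subclusters: 829 and 709 CPM in subcluster 0, 654 and 511 in subcluster 1, 1114 and 796 in subcluster 2, and 566 and 474 in subcluster 3, for control and DTX. The log2 ratios ran from -0.49 to -0.23, and none of their intervals, which cover counting error only, reached 0. Of all tested genes, 15.2%, 18.8%, 14.2% and 17.9% had a lower ratio in subclusters 0 to 3. Over all fibroblast-like cells the ratio of *Lox* was -0.39 (-0.43 to -0.35), and -0.34 after weighting, short of 1.5-fold in each case. Before weighting, 6.86% of tested genes were lower there. *Pcolce* was lower in the same 4 subclusters, by less (-0.24 to -0.035), with intervals that held 0 in subclusters 0 and 2. *P4ha1* was higher in DTX in the 4, at 126 and 129.6 CPM in subcluster 0, 62.5 and 93.2 in subcluster 1, 58.3 and 76.8 in subcluster 2 and 84.0 and 92.9 in subcluster 3. Its interval did not hold 0 in subcluster 1 (log2 ratio 0.57) and held it in the other 3. The shares of tested genes with a lower ratio than *P4ha1* were 48.3%, 90.0%, 80.9% and 58.7% in subclusters 0 to 3. With the upper limit of 2000 genes per cell that the methods state, which left 43 fibroblast-like cells in DTX, the ratio over all fibroblast-like cells was -0.50 for *P4ha1*, -0.61 for *Serpinh1* and -1.27 for *Lox*.

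*Serpinh1* differed by less than its counting error in subcluster 0 (1977 and 1966 CPM) and higher in DTX in subclusters 1 (1280.3 and 1615 CPM), 2 (1258 and 1730.0 CPM) and 3 (1144 and 1342 CPM). Within subcluster 0, none of the 10 genes was past 1.5-fold, against 6.52% of all genes tested there. In subclusters 1 and 2, none of 8 tested was, against 19.4% and 20.5%. In subcluster 3, *Plod2* alone of 9 was (9.30 and 17.0 CPM from 29 and 24 UMIs), against 13%. *Loxl1*, *Loxl2*, *Plod1* and *P4ha2* differed by log2 ratios of -0.28 to 0.41 in subclusters 0 to 3, with signs that varied between subclusters.

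Of the lists of related genes, the other collagen processing genes had 0 higher and 3 lower of 21 tested in fibroblast-like cells of DTX, with a median log2 ratio of 0.10 beside 0.12 for all genes. Of all genes tested in these cells, 11.3% were past 1.5-fold in either direction. The 3 lower genes were also lower in subcluster 0 than outside it: *Pcolce2* (445 and 183 CPM), *Adamts2* (732 and 401 CPM) and *Loxl4* (32.2 and 19.9 CPM). Among the cells outside subcluster 0 they were lower in DTX as well, at 596 and 230 CPM, 958 and 514 CPM, and 46.2 and 34.7 CPM. Within it they were at 176 and 142 CPM, 329 and 303 CPM, and 7.16 and 6.92 CPM. The part of the share of subcluster 0 in these differences was not tested. Collagen chains had 1 lower of 15 (*Col1a2*, 19785 and 12981 CPM) and a median of 0.11, and elastic fibre genes 1 higher of 12 (*Ltbp4*, 39.1 and 59.5 CPM) and a median of -0.22, with elastin itself (*Eln*) at 561 and 419.8 CPM. Hypoxia genes had 1 higher (*Ldha*, 269 and 405 CPM) and 1 lower (*Adm*, 168 and 79.8 CPM) of 19 and a median log2 ratio of 0.32. Heat shock genes had 1 higher of 12 (*Hspb1*, 502 and 816 CPM) and a median of 0.28. Myofibroblast genes had 7 higher of 10 and none lower, among them *Tgfb1* (43.7 and 96.3 CPM), *Myl9* (24.2 and 46.3 CPM) and *Tnc* (457 and 833 CPM), with a median of 0.73. Subcluster 0 made up a larger share of cells in DTX. Against the other fibroblast-like cells of DTX it had 7 of the 10 genes past 1.5-fold higher, among them *Acta2* and *Postn*. It had 3 lower, among them *Tgfb1* and *Tnc*, where 26.4% of all genes were past it in either direction. Between the libraries, within subcluster 0, the list had 2 genes higher and 1 lower of 10, against 6.52% of all genes, and its median was 0.19. The counts of this list were 5 higher and 2 lower of 8 in subcluster 1, 1 and 1 of 8 in subcluster 2 and 4 and 0 of 10 in subcluster 3. The shares of all genes past 1.5-fold there were 19.4%, 20.5% and 13%. Macrophage markers in the same cells were at 334 CPM in control and 731 in DTX, all 12 detected, and their part in these counts was not tested.

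In pericyte-like cells, the mural cells of small vessels, 3 of the 10 genes were past 1.5-fold, against 16% of all 5637 tested. *Lox* was at 124 CPM in control and 57.1 in DTX (111 and 96 UMIs, log2 ratio -1.11, -1.51 to -0.70) and *Loxl1* at 54.8 and 18.5 CPM (49 and 31 UMIs, -1.52, -2.19 to -0.87). *P4ha1* was higher in DTX, at 48.1 and 74.4 CPM (43 and 125 UMIs, 0.62, 0.12 to 1.14), but short of 1.5-fold without doublet removal (0.53) or without the mitochondrial limit (0.51). Without that limit *Loxl1* was at -0.91. *Serpinh1* was at 1687 and 1181 CPM, a ratio of -0.51 (-0.61 to -0.42). *Loxl2* (0.18), *Pcolce* (0.10), *Loxl3* (0.13), *Plod1* (-0.27, and 0.044 without the mitochondrial limit), *Plod2* (0.43) and *P4ha2* (-0.092) had intervals that held 0. Fibroblast markers in these cells went from 17604 to 11995 CPM, and *Mfap4*, a fibroblast gene, from 79.4 to 1.79 CPM; their part in the lower *Lox* and *Loxl1* was not tested.

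In endothelial-like cells, 6 of the genes had enough UMIs and 2 were past 1.5-fold, against 18.1% of all genes. *Pcolce* was at 52.5 and 23.1 CPM (55 and 18 UMIs, -1.15), and short of 1.5-fold without doublet removal (-0.54), while *P4ha1* was at 29.6 and 44.9 CPM (31 and 35 UMIs) with an interval of -0.13 to 1.31 that held 0. *Serpinh1* was at 760.1 and 537 CPM (797 and 419 UMIs, -0.50, -0.67 to -0.33), *Plod1* at 139 and 111 CPM (-0.32, -0.71 to 0.072) and *Plod2* at 26.7 and 30.8 CPM. *Lox* had 23 and 2 UMIs, beside *Col1a1* at 500 and 37.2 CPM. Fibroblast markers in these cells were at 2755 CPM in control and 223 in DTX, all 10 detected in both.

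Cells of other classes held UMIs of many of these genes. In droplet data free RNA can add UMIs to a cell, and its amount was not measured here. Each count was set beside the number of UMIs expected from the collagen UMIs (*Col1a1*, *Col1a2*, *Col3a1*) of the same cells at the fibroblast-like ratio. Free RNA can come from every class, so that its own ratios may differ from this one. In macrophage-like cells (1671 in control, 4347 in DTX), *Lox*, *Loxl1*, *Loxl2*, *Plod2*, *P4ha2*, *Serpinh1* and *Pcolce* stood at 0.878 to 2.86 times that number in both libraries. The DTX intervals of *Lox*, *Loxl2*, *Plod2*, *P4ha2* and *Serpinh1* lay wholly above that number in these cells, as did the control intervals of *Lox*, *P4ha2* and *Serpinh1*. *Lox*, *Pcolce* and *Serpinh1* were the 3 of 6 tested genes past 1.5-fold there, all lower in DTX, against 14.6% of all genes, and *Col1a1* was at 107 and 26.6 CPM. *Loxl3* stood at 4.51 (1.81 to 9.29) and 7.98 (5.06 to 12.0) times, from 7 and 23 UMIs.

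**Figure D4:**
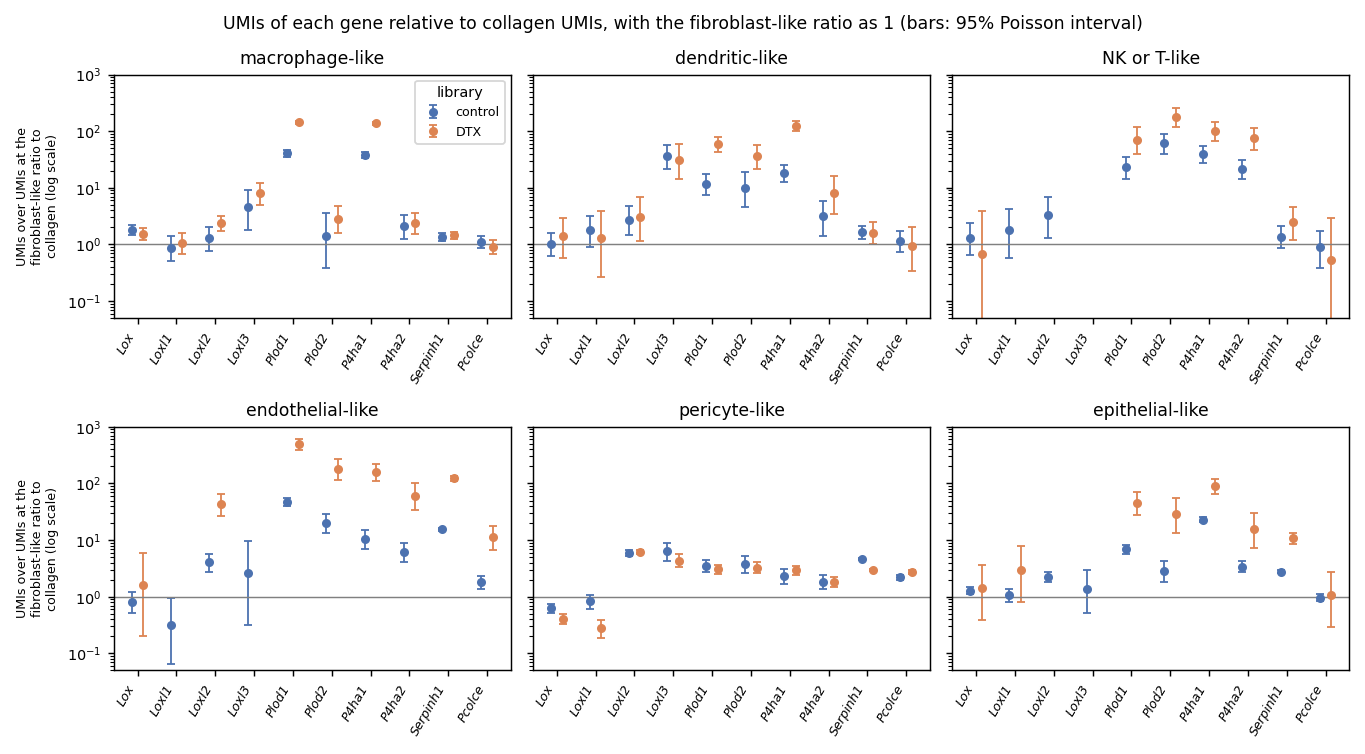
UMIs of each gene over the UMIs that would stand beside the collagen UMIs of the class at the ratio of fibroblast-like cells (log axis; 1 is that ratio), for 6 classes, blue for control and orange for DTX, with 95% Poisson intervals; genes with 0 UMIs are not drawn. *Plod1* and *P4ha1* lie far above 1 in macrophage-like cells, and *Plod2* and *P4ha2* join them in NK or T-like cells. *Lox* and *Loxl1*, where drawn, stay nearer to 1 than *Plod1* and *P4ha1* in the 3 immune classes.

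*Plod1* and *P4ha1* were far above it in macrophage-like cells, at 40.5 and 144 times for *Plod1* and 38.1 and 138 times for *P4ha1*. Their levels were 31.4 and 34.4 CPM for *Plod1*, from 255 and 1019 UMIs, and 28.7 and 40.1 CPM for *P4ha1*, from 233 and 1189 UMIs. The log2 ratio of *P4ha1* was 0.47 (0.27 to 0.67) and that of *Plod1* 0.13 (-0.066 to 0.32). Different macrophage subclusters held most of this class in each library: those led by *H2-Eb1* and by *Hspa1a* and *Ccl8* held 823 and 635 cells of control, and those led by *Hp* and *Vcan*, by *Arg1* and *Cxcl3* and by *Ccl7* and *Cbr2* held 1115, 1112 and 886 cells of DTX. In DTX, *P4ha1* ran from 28.7 CPM in the *H2-Eb1* subcluster to 50.9 in the *Arg1* subcluster and 56.3 in one led by interferon genes such as *Cxcl10*. In macrophage-like cells 6 of 18 hypoxia genes were past 1.5-fold higher and 1 lower, against 14.6% of all genes in either direction. *Eno1* was at 204 and 428 CPM and *Pgk1* at 219.5 and 414 CPM. Whether these genes and *P4ha1* are linked was not tested.

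Lymphocytes held *Plod2* and *P4ha2* besides *Plod1* and *P4ha1*. NK or T-like cells (225 and 151) held *Plod2* at 15.3 (9.93 to 22.7) and 19.8 (13.1 to 28.6) CPM, from 25 and 28 UMIs, which is 61.0 and 178 times the collagen ratio. *P4ha2* was at 17.2 and 15.5 CPM from 28 and 22 UMIs, 21.6 and 75.3 times it. Both were at 2.34 CPM or less in macrophage-like cells. In the same lymphocytes *Serpinh1* stood at 1.37 (0.848 to 2.09) and 2.47 (1.18 to 4.54) times the ratio and *Lox* at 1.33 (0.662 to 2.37) and 0.688 (0.017 to 3.83) times. After thinning, 2.74% and 3.97% of NK or T-like cells had a *Plod2* UMI, against 0.138% and 0.119% of macrophage-like cells. In dendritic-like cells (386 and 428), *Loxl3* had 18 and 9 UMIs, 36.1 and 30.9 times the ratio, and *P4ha1* had 36 and 107 UMIs, 18.3 and 123 times it.

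Mast-like cells, few as they were (34 and 18), had *Loxl2* at 48.2 (22.0 to 91.5) CPM in control and 219 (149 to 311) in DTX, from 9 and 31 UMIs. Thinned to 2000 UMIs, 4 of 17 DTX cells had one. *Serpinh1* had 5 and 0 UMIs in these cells and *Plod2* none, and with 18 and 34 cells such counts bound little. In epithelial-like cells (2066 and 235), *P4ha1* was at 13.6 and 11.6 CPM and *Serpinh1* at 28.8 and 21.9 CPM, above the collagen ratio in both libraries.

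The genes whose pattern was most like that of each member were ranked by Pearson's r of log2(CPM + 1) over the 16 combinations of class and library with at least 100 cells, among 11976 genes with at least 200 UMIs. These points share libraries and depth, and r is given as a description. For *Lox* they were *Serpina3n*, *Aebp1* and *Rarres2* (r = 0.985 to 0.987), for *Loxl1* they were *Lox*, *Scara5* and *Col14a1* (0.973 to 0.977), and for *Loxl2* they were *Ccl11*, *Cd248* and *Smim1* (0.983 to 0.991). *Serpinh1* stood nearest to *Fbn1*, *Col5a2* and *Tmem47* (0.985 to 0.987), and *Pcolce* to *C1s1*, *Adamts2* and *Sparc* (0.989 to 0.990). The others had lower values: *Loxl3* with *Lix1l*, *Il6* and *Mmp23* (0.927 to 0.955), *P4ha2* with *Tgfbr3*, *Fermt2* and *Aamdc* (0.940 to 0.944), and *Plod2* with *1500009L16Rik*, *Prkca* and *Map4* (0.925 to 0.931). *Plod1*, with *Ssr3*, *Atraid* and *Cd276* (0.899 to 0.909), and *P4ha1*, with *Sntb2*, *Fndc3b* and *S1pr2* (0.895 to 0.915), had the lowest values for the nearest gene. Within the fibroblast-like cells, over 10 combinations of subcluster and library with at least 40 cells, *Loxl3* stood nearest to *Il6*, *Plau* and *Thbs4* (0.964 to 0.982) and *Plod2* to *Myh10*, *Hist1h2ae* and *Flnc* (0.981 to 0.984), a ranking added after the levels in subcluster 0 had been seen.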

How the data were processed

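The matrices hold raw UMI counts of each gene in each cell as deposited by the authors, made by Cell Ranger 6.1.1 on mm10 (per the submitters' processing notes; the methods name another version). Each library is 1 matrix. Per the methods, technical replicates numbered 2 and biological replicates were not made. Whether a matrix joins 2 runs was not given in the sources used here. Cells needed 500 genes or more, with mitochondrial genes giving 6% of UMIs or less. Adding the 2000-gene ceiling of the methods left 2522 and 2642 cells and was run as an alternative. Doublets were scored by Scrublet in scanpy 1.11.5 at an expected rate of 8%. Its threshold called 4.59% of control cells and 0% of DTX cells, so that the highest 8% of scores were removed from DTX. Of the cells kept, the median depth was 9579.5 UMIs in control and 7286 in DTX, while within fibroblast-like cells it was 11177 and 13960. The precision of a level is set by the UMIs of a class, 35033362 and 9719831 in fibroblast-like cells and 1048559 and 780349 in endothelial-like cells.

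Counts were clustered with Seurat 5.3.0 in R 4.3.3 (2000 variable genes, 30 principal components, resolution 0.2; 0.5 for macrophage-like cells), without the 10 genes and 24 other collagen processing genes. A marker was raised at 2 times the median cluster, with 50 CPM added, and in 10% of cells. Names came from the marker list best represented among the 10 leading genes of a cluster. No name was given where fewer than 3 markers were raised, where another list had 3 leading genes, or, for classes, where no marker led and fewer than 75% were raised. Fibroblast subclusters with no leading marker were named if the list also had the largest raised share. This scoring was written after clusters had been seen. Neutrophil-like cells had few UMIs per cell and kept their name through leading markers.

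Levels are summed UMIs of a class in CPM with exact Poisson intervals. Log2 ratios had 1 CPM added to each level, with bounds from the exact binomial split of the UMIs. Called means past 1.5-fold with at least 50 UMIs. Shares of cells have Clopper-Pearson intervals after thinning to 2000 UMIs. Where a count was 0, the CPM of 3 counts is given as a floor, which lies below the exact Poisson upper bound. The ratio calculation was checked on Poisson counts simulated from the fibroblast-like means. These counts hold no variation between cells or mice beyond counting error, so that the check covers the code only. Python 3.11.15, numpy 2.4.6, scipy 1.17.1 and pandas 2.3.3 were used. The genes, lists and markers were chosen with earlier results of these data known. All 10 genes and *Mrc1* are named, up to 4 genes per list with the largest ratios, and other genes after their values were seen. A gene that this rule names is not reported here. The list genes *Ccn1* and *Ccn2* were matched as *Cyr61* and *Ctgf*.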

Additional observations from a re-analysis of the deposited data

Results flagged for a closer look

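A few genes had ratios between the libraries that pointed in opposite directions in different classes, with counting intervals that excluded 0 on both sides. The difference between classes was not tested, since each class had 1 sample per group. For *Serpinh1*, the log2 ratio of DTX to control was 0.20 in fibroblast-like cells, -0.51 in pericyte-like cells and -0.50 in endothelial-like cells, so that the first exceeded the others by 0.71 and 0.70. For *Loxl1*, it was 0.079 in fibroblast-like cells and -1.52 in pericyte-like cells, a difference of 1.60, with 49 and 31 UMIs behind the latter. In fibroblast-like cells the median ratio of all tested genes was 0.12. There 62.1% of tested genes had a lower ratio than *Serpinh1* and 43.7% a lower one than *Loxl1*. The values in fibroblast-like cells depended on the setting. *Loxl1* was -0.056 there with scaling by the median gene and -0.47 with at most 2000 genes per cell. With that limit, which left 43 such cells in DTX, *Serpinh1* was -0.61 in fibroblast-like cells, and no gene was tested in pericyte-like or endothelial-like cells. Without the mitochondrial limit *Serpinh1* was -0.23 in pericyte-like cells. Fibroblast markers were lower in DTX in pericyte-like cells (17604 CPM in control and 11995 in DTX) and in endothelial-like cells (2755 and 223 CPM). Their part in these ratios was not tested.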

How the results depend on the processing

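No leave-one-out and no paired analysis was possible because each group is 1 library. In fibroblast-like cells, 2 genes were past 1.5-fold. The count was 5 of 8 tested, all lower in DTX, with at most 2000 genes per cell (518 and 43 cells), 1 without the mitochondrial limit (*Loxl3* at 0.58, short of the fold) and 0 with subclusters weighted as in control. Shares of all genes past 1.5-fold are not given for the alternative settings in this section. Their counts thus describe the settings and show nothing particular to the 10 genes. The summed log2 ratio of 0.022 was -0.66 with at most 2000 genes, 0.050 without doublet removal, -0.11 with median scaling, -0.016 without the mitochondrial limit and 0.063 without subclusters 4 and 5, so that its sign depends on the setting. Endothelial-like cells had 2 genes past the fold, 1 with all variable genes or median scaling, 5 without the mitochondrial limit and 0 of 2 with at least 200 UMIs; without doublet removal the count stayed at 2 with another gene in place of *Pcolce* (-0.54). With that minimum, pericyte-like cells had 1 instead of 3 and macrophage-like cells 1 instead of 3, which had 5 without the mitochondrial limit. With at most 2000 genes, no gene was tested in pericyte-like or endothelial-like cells (8 and 7, and 9 and 3 cells). In control, the ratio of subcluster 0 to other fibroblast-like cells was 4.47 for *Plod2* and 3.95 for *Loxl3*. At resolution 0.5, where the *Acta2* group no longer counts as *Plac8*-like, these were 1.65 and 1.43, that of *Serpinh1* turned to -0.029 and, in DTX, that of *P4ha2* to -0.14. Without doublet removal they were 3.84 and 3.44, and *Loxl3* was 3.62 without the mitochondrial limit. Of ratios of single genes between libraries, 32 of 32 stayed within their intervals with 0.1 CPM added and with all variable genes, 31 of 32 without doublet removal, 25 without the mitochondrial limit, 23 with median scaling and 6 of 13 with at most 2000 genes. Not thinning moved 53 of 60 shares of cells, and subclusters 4 and 5, left out, moved 3 of 10 ratios. The alternatives on subclusters were added after the data were seen. The cause of these changes was not tested.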
